A study of Mus musculus with 12 samples.

Results

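The sites described here are poly(A) sites of mouse embryonic stem cells listed with the hexamer TATAAA, which differs from the canonical polyadenylation signal AATAAA at base 1 only. They were found by taking the most frequent hexamer of the catalogue as canonical and keeping every site whose hexamer has T in place of its base 1, at any distance and outside the mitochondrial chromosome. This gave 6404 sites of 145099 nuclear sites, which was 4.41% of all sites and 4.95% of the 129401 sites with a hexamer (95% Wilson interval 4.83 to 5.07%). The rule used the listed hexamer alone and no value of distance, width or position, but which hexamer was listed can depend on other signals nearby, as described below.

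The catalogue comes from a study of 12 libraries in 6 groups of 2, read by 2P-seq, which sequences polyadenylated RNA from the poly(A) tail. All cells were Exosc3 conditional knockout (Exosc3 CKO) clones made from the V6.5 mouse embryonic stem cell line, in which doxycycline at 0.1 μg/ml keeps Exosc3, a core subunit of the RNA exosome, present. The groups were cells without doxycycline and cells with it for 3 days, cells without and with it for 2 days that received 15 μM U1 AMO, an antisense morpholino against the RNA of the U1 snRNP, 8 hours before harvest, and the same 2 doxycycline states with a scrambled AMO at 15 μM. How many clones were used is not given in the sources used here. The exosome degrades RNA from its 3′ end, and the U1 snRNP recognises 5′ splice sites and holds back cleavage at early poly(A) sites. The table held 7 columns, of which 0 held a value of a single library. Which sites were used in which group, and how deeply, was therefore not analysed here, and neither was the effect of Exosc3 loss or of U1 inhibition on these sites. No annotation of the build, mm9, was used, so sites are given by position and not by gene.

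A poly(A) site is made by endonuclease cleavage of the nascent transcript and addition of a poly(A) tail. The cleavage and polyadenylation specificity factor, through its subunits CPSF30 and WDR33, reads a hexamer a short way upstream of the cut, and AATAAA, with U for T in the RNA, is its best-known form. Single-base variants are processed less efficiently in general, and many genes carry a variant at an upstream, alternative site and the canonical signal at the end of the gene. The letters TATAAA also occur in the TATA box of promoters, a DNA element with another function.

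The 5 hexamers that the comparisons turn on are printed as DNA of the sense strand, 5′ to 3′, with the base that differs from the canonical signal in capitals. They are shown because 3 of them differ only in which base replaces the A at base 1.
Signal with T at base 1: Tataaa
Signal with C at base 1: Cataaa
Signal with G at base 1: Gataaa
Most frequent variant signal: aTtaaa
Canonical signal: aataaa

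Among the changes at base 1, TATAAA was the most frequent, and it had rank 3 of all 36 hexamers, after AATAAA and ATTAAA. It was listed for 6404 sites, against 2775 for CATAAA and 1885 for GATAAA, so T at base 1 was 2.31 times as frequent as C and 3.40 times as frequent as G. It made up 57.9% of the 11064 sites changed at base 1 and 11.6% of the 55378 sites whose hexamer differs from AATAAA at any single base. The plus strand held 3247 TATAAA sites and the minus strand 3157. Over the 19 autosomes its share of sites with a hexamer was 4.99% ± 0.453 (SD), from 4.10% on chromosome 15 to 5.84% on chromosome 9, where the mean counting error of one autosome was 0.276 percentage points. On the X chromosome it was 4.35% (interval 3.76 to 5.04%), and 8 sites lay on other or unplaced sequence.

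The catalogue itself shows how TATAAA ranked against other hexamers when a site was given its signal. A site's listed distance could run from 6 to 100 nt, so the hexamer of a nearby site can fall in a site's own range. Of the 6404 TATAAA sites, 0 had an AATAAA listed for another site in that range and 0 had such an ATTAAA, and a count of 0, taken as allowing up to 3, leaves a share of up to 0.0468%. In the other direction, 85 AATAAA sites and 52 ATTAAA sites had the TATAAA of another site in range, and 7 of each had it nearer than their own signal. For 24 of the other 33 hexamers the pattern was turned round, and for 9 no case was seen either way. TATAAA sites had one of the 24 in range in 129 cases, 17 of them surely nearer than TATAAA, and 0 sites with any of the 33 had a TATAAA in range. Where both lay in range in these cases, TATAAA was thus listed after AATAAA and ATTAAA and ahead of these 24. This order can touch every comparison below, and its part in them was not tested beyond the alternatives given.

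Most TATAAA hexamers lay about 20 nt from the cluster, as AATAAA hexamers did, but a smaller share of them did so. The distance was most often 20 nt, with 479 sites, and its median was 23 nt (quartiles 20 and 39 nt). At 15 to 30 nt, the window around the peak, lay 4084 sites or 63.8% (interval 62.6 to 64.9%). Over autosomes that share ran from 60.4 to 67.7%. At 61 to 100 nt the mean count was 23.9 sites per nt ± 5.36 (SD over distances, from 17 to 39). That range held 957 sites in all, 14.9% of the total (interval 14.1 to 15.8%). Whether the count still fell with distance there was not tested. Per nt, the window at 15 to 30 nt held 10.7 times the TATAAA sites of the range at 61 to 100 nt (interval 9.94 to 11.5, exact binomial). If the mean count at 61 to 100 nt held at 15 to 30 nt too, it would account for 383 of the 4084 sites, which leaves 3701 or 90.6%.

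The share at 15 to 30 nt was lower for TATAAA than for each set it was compared with. It was 63.8% of TATAAA sites, against 79.7% of AATAAA sites (difference -15.9 percentage points ± 2.18, SD over 19 autosomes, all 19 lower, adjusted p = 4.4e-05, 2-sided sign-flip permutation test over autosomes). Against ATTAAA sites, with 83.3%, the difference was -19.4 points ± 2.03 (all 19 lower, adjusted p = 4.89e-05, permutation test). Against CATAAA and GATAAA sites together, with 70.5%, it was -6.40 points ± 3.56 (18 of 19 lower, adjusted p = 4.89e-05, permutation test). These p-values, adjusted by Benjamini-Hochberg over 22 comparisons, say how regular a difference was from autosome to autosome. Autosomes are not biological replicates, neighbouring sites are not independent, and no p here speaks of a repeat in other cultures. Among the hexamers set beside each other here, the ratio of 15 to 30 nt over 61 to 100 nt was lowest for TATAAA. It was 10.7 for TATAAA, 12.8 for GATAAA (interval 11.2 to 14.7) and 14.7 for CATAAA (interval 13.1 to 16.5). For ATTAAA it was 37.7 and for AATAAA 58.0. For all sites with a hexamer it was 20.5 (interval 20.1 to 20.9), with 72.2% of them at 15 to 30 nt. These include further hexamers that were not examined separately, so the rank of TATAAA among all hexamers was not tested. The intervals of TATAAA and GATAAA, 9.94 to 11.5 and 11.2 to 14.7, overlapped.

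**Figure D1:**
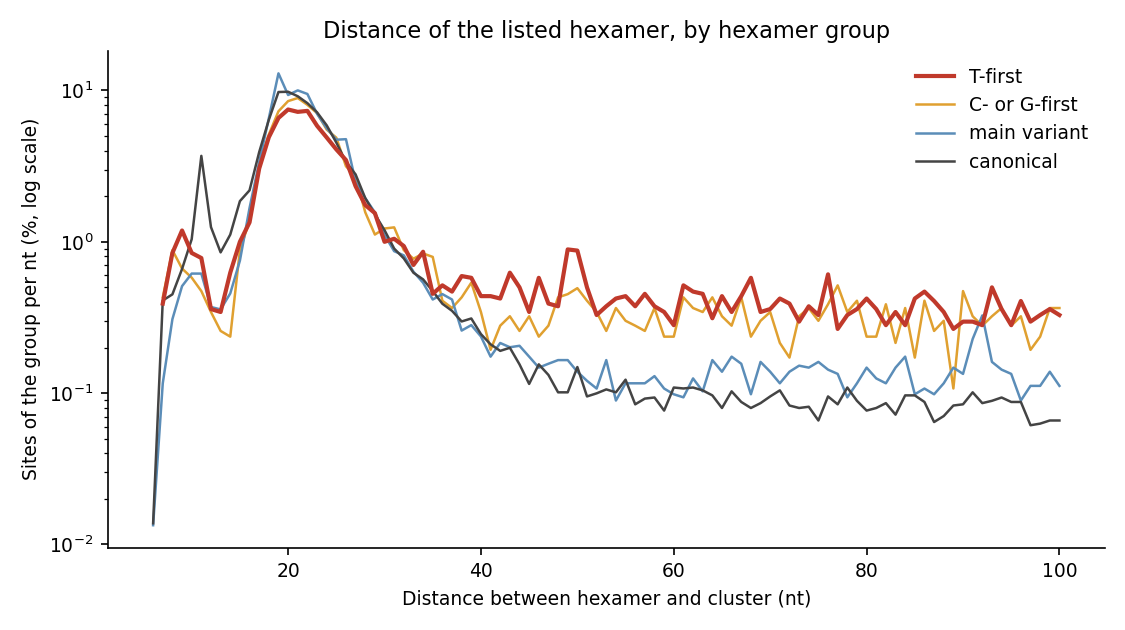
Percent of the sites of each hexamer group (y axis, log scale) against the distance from hexamer to cluster in nt (x axis), for TATAAA (T-first), CATAAA and GATAAA (C- or G-first), ATTAAA (main variant) and AATAAA (canonical). All peak near 20 nt, TATAAA has 14.9% of its sites at 61 to 100 nt against 3.44% for AATAAA, and it has a bump at 49 and 50 nt with 113 sites.

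Within the window TATAAA was listed slightly farther from the cluster than AATAAA. The point of a cluster from which distances were counted is not known, so they cannot be read as distances from the cut. The mean distance at 15 to 30 nt was 21.9 nt for TATAAA sites, against 21.5 nt for AATAAA sites (difference 0.326 nt ± 0.266, SD, farther on 18 of 19 autosomes, adjusted permutation p = 0.00012). The difference was 0.979 nt with the window widened to 10 to 35 nt, where the 2409 AATAAA sites at 11 nt are included. Against ATTAAA sites, with 21.6 nt, it was 0.211 nt ± 0.274 (farther on 15 of 19, adjusted p = 0.00671, permutation test), and with plus-strand sites alone it was 0.147 nt with an adjusted permutation p of 0.128. Against CATAAA and GATAAA sites, with 21.8 nt, no difference passed the test (0.0156 nt ± 0.290, farther on 9 of 19, adjusted p = 0.816, permutation test).

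The TATAAA profile had a smaller peak on each side of the main one. Close to the cluster, at 7 to 11 nt, lay 259 sites (4.04%, interval 3.59 to 4.56%), with most at 9 nt (76 sites) and few at 12 and 13 nt (23 and 22 sites). AATAAA had 6.25% of its sites at 7 to 11 nt, most of them in its narrow peak of 2409 sites at 11 nt, where TATAAA had 50. Such a near peak was also seen for the other variants. CATAAA and GATAAA together had 3.03% at 7 to 11 nt, with 41 sites at 8 nt and 12 at 13 nt. ATTAAA had 2.17% there, with 138 sites at each of 10 and 11 nt and 80 at 13 nt. The TATAAA sites at 7 to 11 nt had wider clusters, with a median of 14 nt against 9 nt for those at 15 to 30 nt. These medians were 13 and 8 nt for ATTAAA sites, 11 and 8 nt for CATAAA and GATAAA sites, and 8 and 10 nt for AATAAA sites. Another site of the strand lay within 1 kb of 68.7% of the TATAAA sites at 7 to 11 nt (interval 62.8 to 74.1%). For those at 15 to 30 nt it was 71.4% (interval 69.97 to 72.7%), and these intervals overlap.

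On the far side, TATAAA was listed 57 times at 49 nt and 56 times at 50 nt. At the 18 distances around them, 40 to 48 and 51 to 59 nt, it was listed 27.4 times per nt ± 5.14 (SD), with no distance above 40. The mean at 49 and 50 nt was 2.06 times the mean around it. For the 18 hexamers with 500 or more sites this ratio ran from 0.656 upward with a median of 1.01, and TATAAA stood highest, ahead of CATAAA at 1.87 (32 sites). The next hexamers, not changed at base 1 alone, followed closely at 1.78 (15 sites) and 1.74 (12 sites). The ratio was 1.07 for GATAAA (12 sites), 0.997 for ATTAAA and 0.948 for AATAAA. These distances were singled out because of what the profile showed there, so the ratio is a description.

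The 113 TATAAA sites at 49 or 50 nt also stood apart in where they lay. Of them, 40.7% had another site of their strand within 1 kb (interval 32.1 to 49.9%), against 71.4% of TATAAA sites at 15 to 30 nt and 71.5% of those at 51 to 60 nt (interval 65.6 to 76.7%). Sites with no neighbour within 2 kb made up 50.4% of them and 20.1% of those at 15 to 30 nt. The nearest site lay at a median of 2023 nt from them, against 237 nt at 15 to 30 nt, and their median width was 5 nt, against 9 nt. They were spread over 19 chromosomes, with 46.9% on the plus strand. If the level of 27.4 sites per nt around 49 and 50 nt held there too, it would account for part of the 113. The values given are those of all 113 together. AATAAA sites at 49 or 50 nt had a neighbour within 1 kb in 52.1% of cases (interval 44.5 to 59.7%), against 54.3% of AATAAA sites at 51 to 60 nt (interval 50.4 to 58.1%). CATAAA sites, with the next highest ratio, had one in 56.3% of the 32 sites at 49 or 50 nt (interval 39.3 to 71.8%) and in 68.2% of those at 15 to 30 nt (interval 66.1 to 70.2%). Of the 32, 37.5% stood alone, against 21.3% at 15 to 30 nt. Whether these TATAAA sites come from priming at A-rich sequence or from a repeated element was not tested, since no genome of the build was used.

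**Figure D2:**
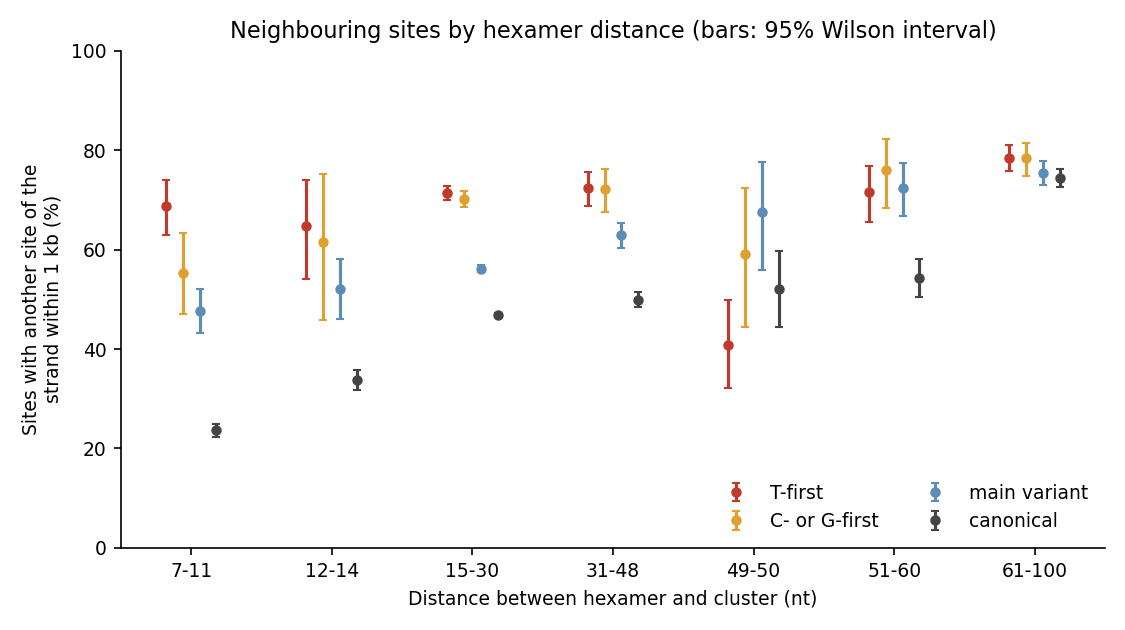
Percent of sites with another site of the same strand within 1 kb, by the distance in nt between hexamer and cluster, for the same 4 hexamer groups, with 95% Wilson intervals as bars. TATAAA sites (T-first) lie between 64.7 and 78.5% at every distance shown except 49 to 50 nt, where they fall to 40.7%.

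TATAAA sites at 61 to 100 nt often had a close upstream site, as sites of the other hexamers at that distance did. Of them, 40.9% had a site of their strand within 100 nt upstream (interval 37.8 to 44.0%), against 16.4% of TATAAA sites at 15 to 30 nt (interval 15.3 to 17.5%). The same share was 36.8% against 12.3% for CATAAA and GATAAA sites, 50.5% against 9.23% for ATTAAA sites and 58.3% against 8.15% for AATAAA sites. For 30.9% of the TATAAA sites at 61 to 100 nt the hexamer could be the one listed for a neighbouring site, against 6.54% at 15 to 30 nt. At 61 to 100 nt this share was 24.3% for CATAAA and GATAAA sites, 44.0% for ATTAAA sites and 56.0% for AATAAA sites. Over all distances 637 TATAAA sites (9.95%, interval 9.24 to 10.7%) could share their hexamer with another site in this way, against 6.74% of CATAAA and GATAAA sites, 5.38% of ATTAAA sites and 4.48% of AATAAA sites. Without the sites that could share, the share of TATAAA sites at 15 to 30 nt was 66.2%, and the ratio over 61 to 100 nt was 14.4 (interval 13.3 to 15.7), against 15.4 for GATAAA (interval 13.2 to 17.9), 19.4 for CATAAA, 65.4 for ATTAAA and 129 for AATAAA. Leaving these sites out thus moved the ratio of ATTAAA and of AATAAA by more than that of TATAAA.

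The clusters of TATAAA sites had a median width of 9 nt (quartiles 3 and 21 nt, 95th percentile 51 nt). Those of all sites with a hexamer had the same median (quartiles 3 and 20 nt, 95th percentile 49 nt). Clusters of 1 nt made up 13.3% of TATAAA sites (interval 12.5 to 14.2%), against 9.94% of AATAAA sites (difference 3.17 percentage points ± 2.36, SD, higher on 18 of 19 autosomes, adjusted p = 0.00012, permutation test). Against ATTAAA sites, with 11.4%, the difference was 1.85 points ± 2.78 (higher on 13 of 19, adjusted p = 0.0159, permutation test). CATAAA and GATAAA sites had 13.7%, and the difference of -0.805 points ± 3.20 did not pass the test (adjusted p = 0.33, permutation test). Clusters wider than 50 nt made up 5.09% of TATAAA sites (interval 4.58 to 5.66%) and 4.02% of AATAAA sites (interval 3.87 to 4.17%), and these intervals do not overlap. The share was 5.13% for CATAAA and GATAAA sites (interval 4.53 to 5.80%), 4.03% for ATTAAA sites and 4.54% for all sites with a hexamer.

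The mean width differed little. On the log2 scale it was 3.01 for TATAAA sites, against 3.12 for AATAAA sites (difference -0.097 ± 0.100, SD, lower on 17 of 19 autosomes, adjusted permutation p = 0.000423). The difference was -0.16 with only hexamers at 15 to 30 nt and -0.17 with only sites that had no other site within 200 nt upstream, and -0.088 with plus-strand sites alone, where the adjusted permutation p was 0.06005. Against ATTAAA sites, with 2.97, the difference of 0.055 ± 0.12 did not pass (adjusted p = 0.0857, permutation test). Against CATAAA and GATAAA sites, with 2.95, it was 0.081 ± 0.13 (adjusted p = 0.0170, permutation test), but it did not pass on either strand alone or where no other site lay within 200 nt upstream.

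Most TATAAA sites had neighbours. Of them, 71.8% had another site of their strand within 1 kb (interval 70.7 to 72.9%), against 46.2% of AATAAA sites (difference 25.8 percentage points ± 3.02, SD, higher on 19 of 19 autosomes, adjusted p = 4.4e-05, permutation test). Among ATTAAA sites it was 57.6%, which gave a difference of 14.4 points ± 2.99 (higher on 19 of 19, adjusted p = 4.4e-05, permutation test). The median gap from a TATAAA site to the nearest site of its strand was 220 nt, against 622 nt for ATTAAA and 1272 nt for AATAAA sites. CATAAA and GATAAA sites had a median gap of 257.5 nt and a neighbour within 1 kb in 71.0% of cases, and the difference of 1.37 points ± 4.90 did not pass the test (higher on 12 of 19, adjusted p = 0.291, permutation test).

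**Figure D3:**
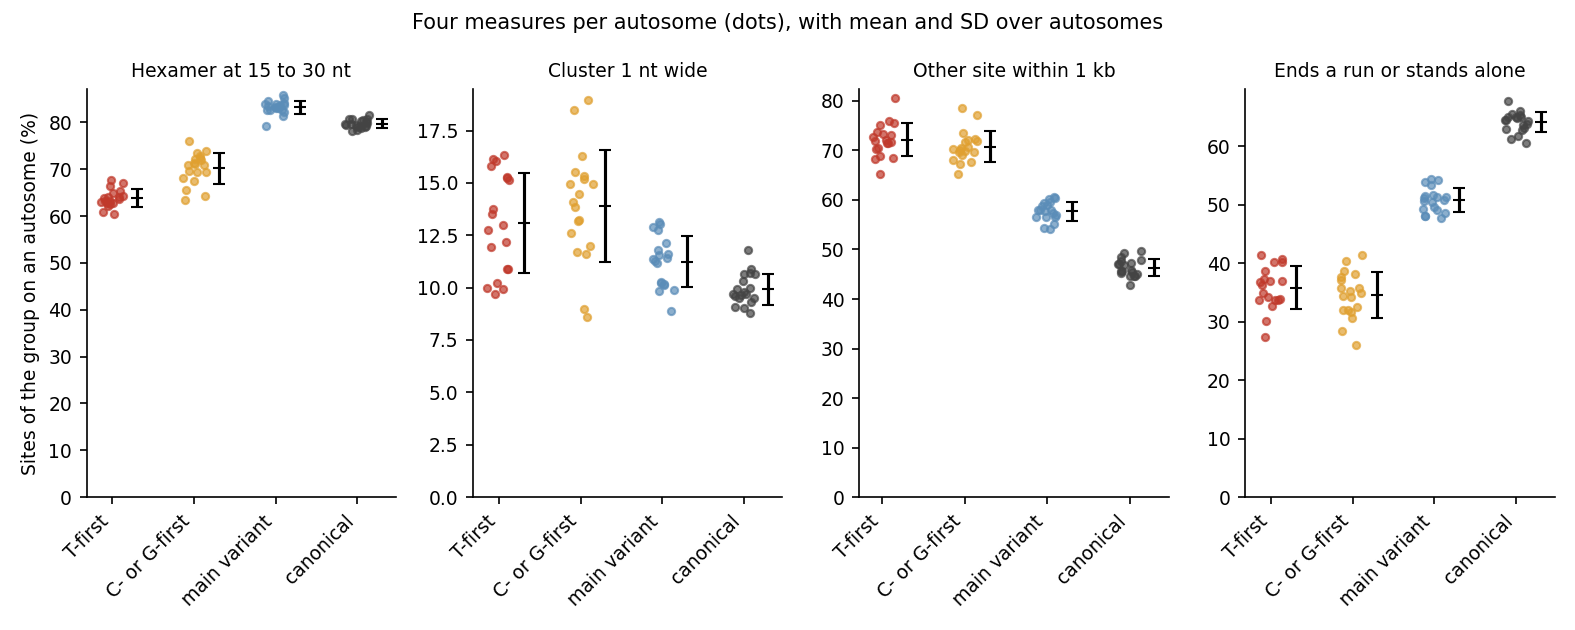
Percent of the sites of each hexamer group on each of 19 autosomes (dots, with mean and SD as bars) that have the hexamer at 15 to 30 nt, are 1 nt wide, have another site of the strand within 1 kb, or end a run or stand alone. TATAAA (T-first) sites lie beside CATAAA and GATAAA (C- or G-first) sites in the last 3 panels and apart from AATAAA (canonical) sites in the first and the last 2.

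Where neighbouring sites were joined into runs, TATAAA sites lay most often in the middle of a run. Sites of a strand with gaps of at most 2 kb were joined, which gave 25530 runs of 2 or more sites. Of the TATAAA sites, 2905 lay in the middle of a run (45.4%, interval 44.1 to 46.6%), 1182 were its most upstream and 997 its most downstream site, and 1320 (20.6%) stood alone. AATAAA sites stood alone in 43.1% of cases and lay in the middle of a run in 21.6%. CATAAA and GATAAA sites stood alone in 20.4% of cases and lay in the middle of a run in 43.5%, close to TATAAA sites. Sites that ended a run or stood alone made up 36.2% of TATAAA sites, against 64.2% of AATAAA sites (difference -28.3 percentage points ± 3.85, SD, lower on 19 of 19 autosomes, adjusted permutation p = 4.4e-05). They made up 50.97% of ATTAAA sites, and the difference between TATAAA and ATTAAA sites was -15.0 points ± 3.83 (all 19 autosomes lower, adjusted p = 4.4e-05, permutation test). For CATAAA and GATAAA sites the share was 34.6%, and the difference of 1.196 points ± 5.46 did not pass the test (adjusted p = 0.385, permutation test).

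Read the other way, TATAAA made up a share of the sites with a hexamer that depended on their place. It was 2.96% of lone sites (interval 2.80 to 3.12%), against 5.998% of sites in runs. The difference was -3.13 percentage points ± 0.587 (SD over autosomes, all 19 lower, adjusted permutation p = 4.89e-05). Inside runs it was 7.38% of middle sites (interval 7.12 to 7.64%). It was 4.198% of the most downstream sites, against 5.46% of the most upstream ones (difference -1.32 points ± 0.987, with 17 of 19 autosomes lower, adjusted permutation p = 0.000128). The TATAAA share was higher in longer runs, with 2.96% of lone sites, 4.35% in runs of 2 sites, 5.37% in runs of 3 to 4, 6.93% in runs of 5 to 9 and 7.71% in runs of 10 to 76. CATAAA and GATAAA together followed the same order by run size, with 2.13% of lone sites and 5.58% of sites in runs of 10 to 76. AATAAA had the opposite order, with 62.9% of lone sites and 30.8% of sites in runs of 10 to 76. TATAAA made up 4.98% of plus-strand and 4.92% of minus-strand sites, a difference of 0.0544 points ± 0.679 (SD over autosomes) that did not pass the test (adjusted p = 0.76, permutation test).

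**Figure D4:**
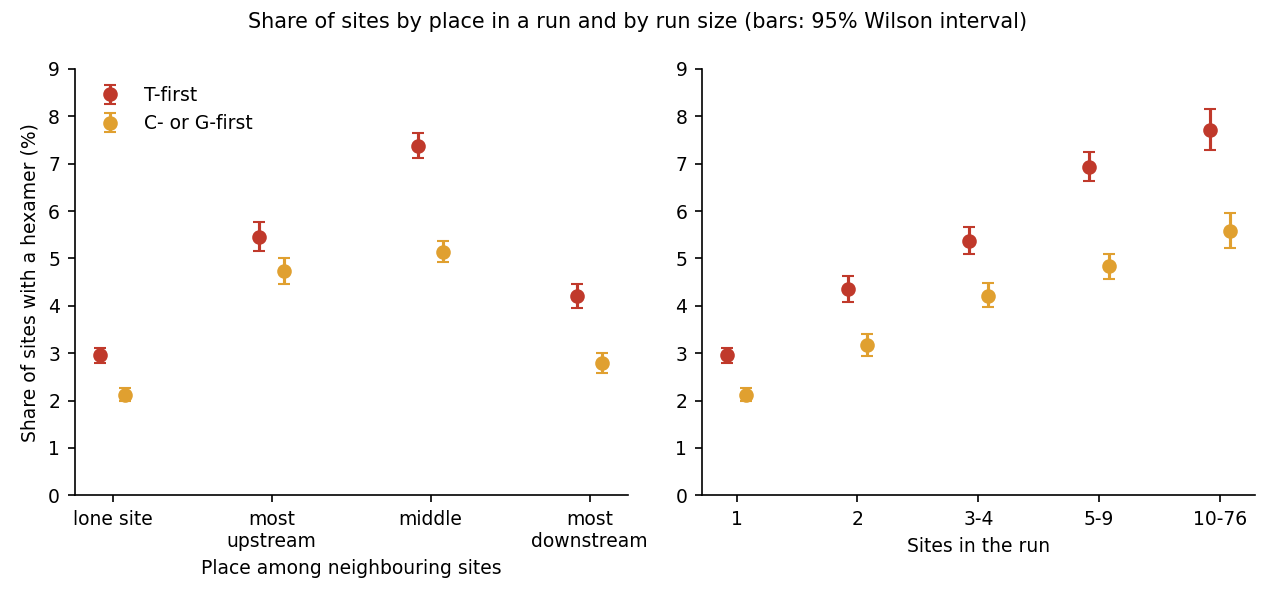
Share (%) of sites with a hexamer that are listed with TATAAA (T-first) or with CATAAA or GATAAA (C- or G-first), by place in a run (left) and by the number of sites in the run (right), with 95% Wilson intervals as bars. TATAAA is lowest among lone sites at 2.96% and highest in the middle of runs at 7.38%, and the share is higher in longer runs up to 7.71%.

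The place in a run was also set beside the position of the hexamer. At 15 to 30 nt lay 62.2% of lone TATAAA sites, 67.0% of the most upstream, 62.8% of the middle and 65.0% of the most downstream ones, with intervals of 59.5 to 64.8%, 64.3 to 69.6%, 60.98 to 64.5% and 62.0 to 67.9%. At 61 to 100 nt lay 11.7%, 11.8%, 17.8% and 14.4% of them, so the far hexamers had their highest share in the middle of runs. The same held for the other hexamers, with 7.07% of middle and 1.75% of lone AATAAA sites, 9.21% and 3.25% of ATTAAA sites, and 14.2% and 4.94% of all sites with a hexamer. The ratio of the 2 windows was 14.1 (interval 11.8 to 17.1) for the most upstream TATAAA sites and 8.80 (interval 7.98 to 9.72) for the middle ones.

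A canonical site lay downstream of a TATAAA site more often than upstream of it. An AATAAA site lay within 1 kb downstream of 30.1% of TATAAA sites (interval 29.0 to 31.3%) and within 1 kb upstream of 20.1% (interval 19.1 to 21.1%), a difference of 10.4 percentage points ± 3.01 (SD, positive on 19 of 19 autosomes, adjusted permutation p = 4.89e-05). There were 1453 TATAAA sites with AATAAA sites downstream only, 810 with them upstream only, 476 with both and 3665 with neither. The part of the listing order in this difference was not tested. Among TATAAA sites whose next upstream site lay at a gap of up to 50 nt, that site had AATAAA in 5.82% of cases, against 32.9% at gaps over 200 nt and up to 1 kb. Counting only AATAAA sites 0.1 to 1 kb away, with none nearer on that side, the difference was 6.81 points, positive on 19 of 19 autosomes, and it was 6.44 points with all AATAAA sites within 0.5 kb. For CATAAA and GATAAA sites the shares were 27.8% downstream and 17.2% upstream, and for ATTAAA sites 21.3% and 17.2%.

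TATAAA sites followed each other most often at gaps of up to 100 nt, within which a hexamer can be shared. The next site downstream also had TATAAA in 40.5% of cases at gaps of up to 50 nt (interval 36.8 to 44.2%) and in 20.1% at 51 to 100 nt. It did so in 5.50% of cases at gaps over 100 and up to 200 nt (interval 3.996 to 7.52%) and in 5.90% at gaps over 200 nt and up to 1 kb (interval 4.81 to 7.22%). For all sites with a hexamer these values were, in the same order, 7.21%, 7.41%, 5.75% and 5.12%. Within 1 kb, 539 TATAAA sites had TATAAA as the next site downstream. Of these, only 205 were sites that could not share their hexamer. The shares at gaps of up to 100 nt therefore include clusters that may rest on the same hexamer. Of the runs of 2 or more sites, 4097 held a TATAAA site, 773 held more than 1, and the richest held 7.

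A few sites are given by position, in mm9 coordinates with starts counted from 1. The widest TATAAA cluster, of 351 nt, spanned 23666736 to 23667086 of chromosome 13, plus strand, in the middle of a run of 19 sites, with its hexamer at 32 nt. The next were a cluster of 298 nt on the minus strand of chromosome 15 from 39073074 to 39073371, in a run of 18 sites, and one of 261 nt on the minus strand of chromosome 16 from 91689516 to 91689776, in a run of 5. All of these had a neighbour at a gap of 26 to 36 nt. The most isolated TATAAA site was 1 nt wide, at 96478002 on the plus strand of chromosome 2, with its hexamer at 17 nt and an AATAAA site as the next on either side, 1129827 nt upstream and 1127979 nt downstream.

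The run richest in TATAAA lay on the minus strand of chromosome 2 from 48755944 to 48760906. It spanned 4963 nt and held 15 sites, of which 7 had TATAAA, 3 ATTAAA and 2 AATAAA. Its most upstream and its most downstream site both had TATAAA, at 17 and 24 nt. Of the 7, 4 had the hexamer at 15 to 30 nt, and the others had it at 53, 58 and 93 nt. Of these hexamers, those of 4 sites could be shared, at 17 and 58 nt and at 19 and 93 nt, so that the 7 sites may rest on as few as 5 TATAAA hexamers. The closest neighbouring TATAAA sites that could not share a hexamer lay on the minus strand of chromosome 19, from 32747827 to 32747844 and from 32747741 to 32747806, with a gap of 20 nt and hexamers at 33 and 27 nt.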

How the data were processed

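The members and the lists they were compared with were chosen with earlier results of these data known. Libraries were made from poly(A)-selected RNA, per the labels' protocols, and the submitters' processing notes name Trimmomatic, STAR, bedtools and the mm9 build. The cluster rules, the libraries that entered, any filter against priming inside A-rich sequence and how hexamers were searched for are unknown here. Positions and hexamer distances in nt were used as the authors deposited them, pooled over libraries. Depth per library is unknown. The libraries were not compared, and only intervals for counting error are given.

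Starts were taken as counted from 0, and gaps were measured between cluster edges of one strand. The point of a cluster from which a distance was counted is not known, so a hexamer was called possibly shared, or in range, from both cluster edges. Shares have 95% Wilson intervals. Differences per autosome were tested by flipping their signs at random (2-sided permutation test, 100000 resamples, smallest p 1e-05), adjusted over 22 comparisons. The test was checked on simulated data with sites drawn independently, so the check does not cover dependence between neighbouring sites. Named sites, outside chromosomes 18, Y and M, were the 3 widest clusters, the most isolated one, the run with most TATAAA sites and the closest pair. Alternatives were either strand, clusters up to 50 nt, hexamers at 15 to 30 nt only, other windows and gaps, no possibly shared hexamers and, chosen after seeing the data, no distances of 11, 49 or 50 nt, no site within 200 nt upstream and canonical sites 0.1 to 1 kb away. Computation used scipy 1.17.1, pandas 2.3.3 and numpy 2.4.6 under Python 3.11.15 with random seed 1, and plots used matplotlib 3.10.9.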

Additional observations from a re-analysis of the deposited data

How the results depend on the processing

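Of 138 recomputed values, 127 kept their direction and their side of the threshold, 6 kept their direction but no longer passed, and 5 changed sign. All 5 belong to comparisons that did not pass in the first place. Against CATAAA and GATAAA sites, the difference in mean distance was -0.163 nt within 10 to 35 nt and -0.00587 nt without possibly shared hexamers. The difference in sites with a neighbour within 1 kb was -0.129 percentage points where no other site lay within 200 nt upstream, and that in sites ending a run or standing alone was -0.0777 points with gaps of at most 0.5 kb. The strand difference was -0.0218 points at 15 to 30 nt. Those that no longer passed were the distance against ATTAAA on the plus strand (0.147 nt), the share 1 nt wide against ATTAAA on the minus strand (1.88 points) and the log2 width against AATAAA on the plus strand (-0.088). The log2 width against CATAAA and GATAAA sites was 0.11 on the plus strand, 0.051 on the minus strand and 0.033 where no other site lay within 200 nt upstream. The cause was not tested, and a single strand holds fewer sites. No paired analysis was possible because the table holds no value per library. Depth per library is unknown.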

Other observations

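On the opposite strand, a cluster lay within 100 nt of 265 TATAAA sites (4.14%, 95% Wilson interval 3.68 to 4.65%), against 4.14% of AATAAA sites (interval 3.99 to 4.30%). The opposite clusters of TATAAA sites had TATAAA themselves for 36 sites, 13.6% of the 265 (interval 9.98 to 18.2%). Among AATAAA sites with an opposite cluster 5.52% had a TATAAA one (interval 4.72 to 6.44%), among ATTAAA sites 5.59%, and among CATAAA and GATAAA sites 3.72% (interval 1.82 to 7.48%). The 36 sites formed 19 pairs on 13 chromosomes. In 14 of the 19 the minus-strand cluster had the lower coordinates, and in 6 the hexamers lay within 30 nt of each other, counted from the clusters' 5′ edges. These pairs were noticed in the data and were not tested.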
